A study of Sus scrofa with 6 samples.

Results

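PARK7, the gene for the DJ-1 protein, was followed together with 8 genes whose products bind DJ-1, act beside it or carry out mitophagy: PINK1, SQSTM1, MAP1LC3B, UCHL1, DAXX, HIPK1, PIAS1 and AKT1. The members were every probe set annotated to 1 of these 9 genes, which gave 11 probe sets among 23999 on the array, and 9 genes among the 6765 that have a probe set with a single symbol. AKT1 and MAP1LC3B had 2 probe sets each and the other genes 1.

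The samples were pig embryos made by nuclear transfer, that is, by putting the nuclei of cultured cells into oocytes, and those donor cells themselves. Every embryo sample was a pool of 23 to 26 embryos taken 28 h after transfer, at the 2-cell stage. Embryos were injected with anti-DJ1 antibody (2 arrays), injected with IgG (2 arrays) or not injected (1 array). Donor cells were fibroblasts established from an adult Meishan pig (1 array), the same cells that gave the nuclei, and the recipient oocytes came from a slaughterhouse. All 4 groups were represented once in trial 1, while trial 2 repeated only the anti-DJ1 and IgG groups with biologically different samples. No group carries an altered PARK7 gene: the antibody was placed in the embryo to bind the protein, so the PARK7 transcript does not check the injection. The agent of the control is given only as IgG.

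DJ-1 is a small protein that senses oxidants through a reactive cysteine, and its loss causes an inherited form of Parkinson's disease. It works in the same mitochondrial quality pathway as the kinase PINK1, which accumulates on damaged mitochondria and marks them with phosphorylated ubiquitin, so that receptors such as SQSTM1 (p62) can tether them to membranes coated with LC3, the product of MAP1LC3B. In the nucleus DJ-1 binds DAXX and PIAS1, the first a death regulator and histone chaperone that the kinase HIPK1 phosphorylates, the second a SUMO ligase. DJ-1 also favours signalling through the survival kinase AKT1.

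Signals are MAS5 values, a linear brightness per probe set that the authors' processing scaled to a common mean of about 500 on every array (499.8 to 499.9 after leaving out the lowest and highest 2%). The highest of 17 Tag control probe sets, which match no pig transcript, lay between 21.4 and 47.0 and served as the limit of background on its array. The labelled identities fitted most of their markers. Of 13 oocyte and embryo markers 9 were tested, and all 9 lay above the Tag limit on every embryo array. Their summed signal was 71599 to 113111 in embryos against 256 in donor cells. There 5 of them (KPNA7, ZP2, ZP4, BMP15 and DPPA5) were not above the Tag limit. Of 14 fibroblast markers 10 were tested. They summed to 97640 in donor cells, led by VIM, SPARC and FN1, and to 2862 to 3578 in embryos. But DCN was not above the Tag limit in donor cells (5.58, against 54.7 to 111 in embryos). COL1A2 (459 against 210 to 355) and COL3A1 (584 against 160 to 406) differed less. COL5A1, S100A4 and TAGLN were not above the Tag limit on some embryo arrays. Of 11 cumulus and granulosa markers, which mark cells that surround the oocyte, 3 were bright enough to be tested and summed to 1188 to 1709 in embryos. The ratio of 3′ to 5′ signal of EF1A, which rises with shorter target RNA, had values of 24.2 (anti-DJ1), 23.9 (IgG) and 30.0 (non-injected) in trial 1, 8.20 and 9.34 in trial 2, and 4.23 in donor cells. Since arrays are scaled to a common total and samples are pools, fewer cells of a type and less RNA per cell cannot be told apart.

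**Figure D1:**
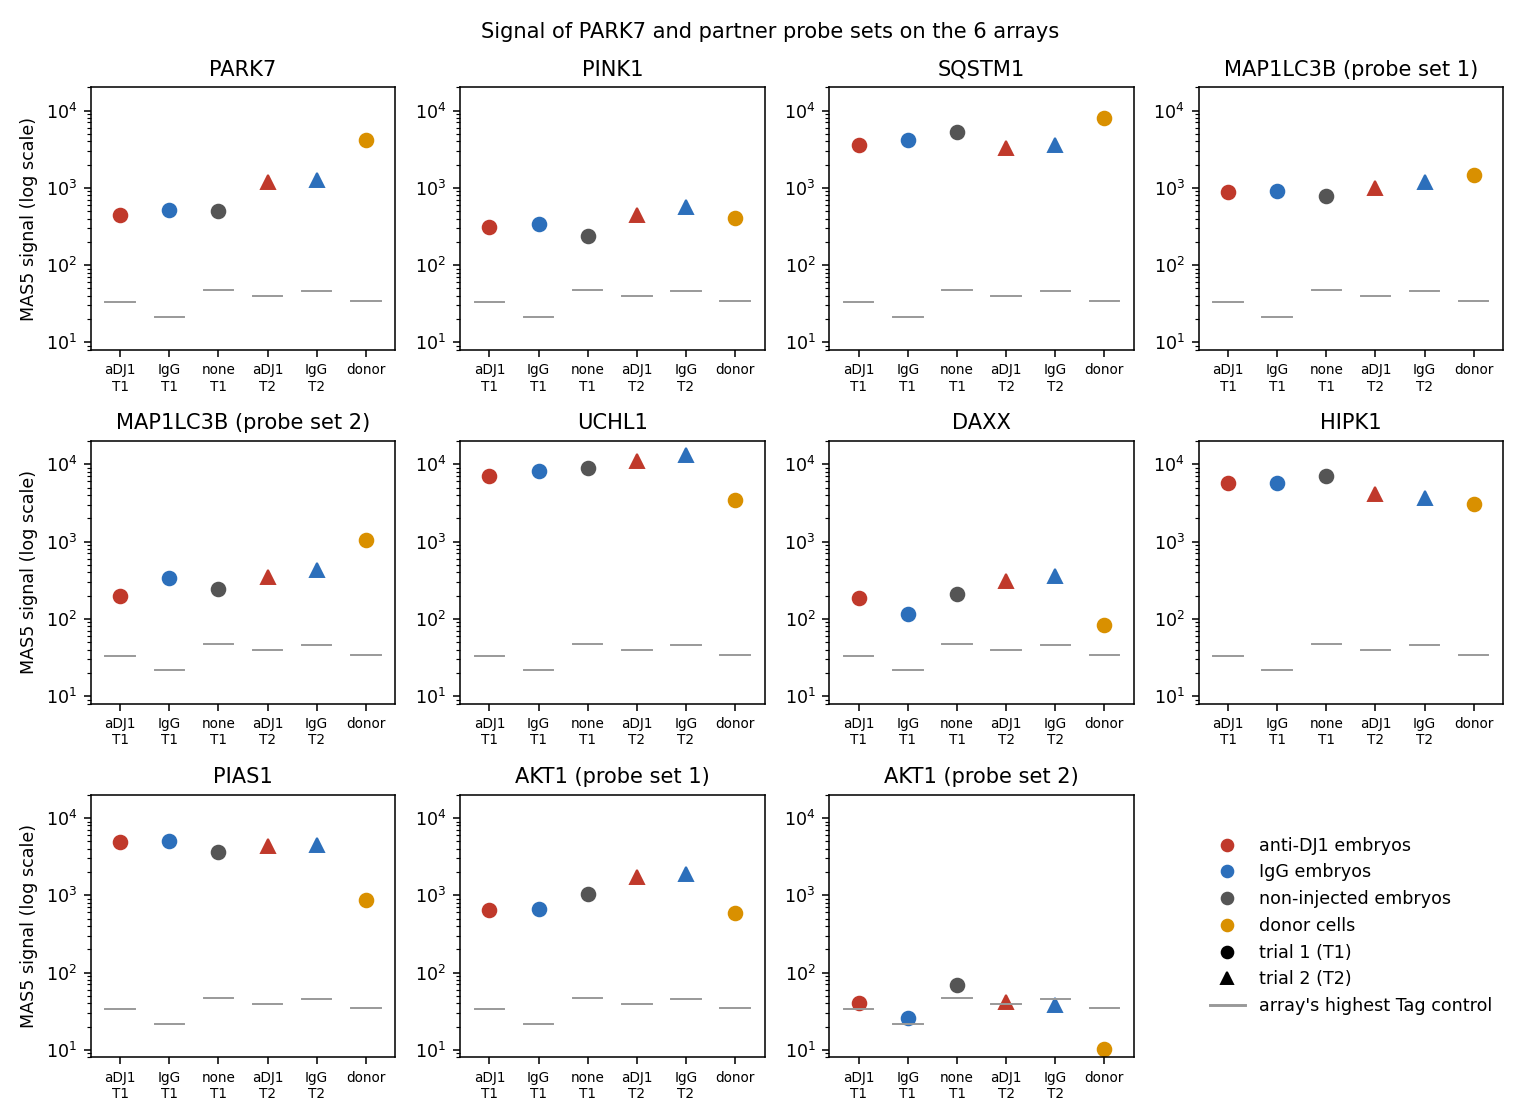
MAS5 signal (log axis) of the 11 probe sets on each of the 6 arrays, with colour for the group, circles for trial 1 and the donor cells and triangles for trial 2; the grey bar is that array's highest Tag control. The PARK7 points sit between 446 and 523 in trial 1 embryos, at 1203 and 1272 in trial 2 embryos and at 4153 in donor cells, while the second AKT1 probe set lies at the Tag limit.

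Of the 11 probe sets, 10 passed the filter that kept the brighter 60% of the array (14399 probe sets tested), and they cover all 9 genes. The exception was the second AKT1 probe set. In the limma fit with group and trial as terms, 0 of the 10 differed between anti-DJ1 and IgG embryos (0% of all tested probe sets did, with 838 of 14399 at an unadjusted p under 0.05), 0 of 10 between IgG and non-injected embryos (1.26% of all tested), and 0 of 10 between anti-DJ1 and non-injected embryos (1.92%). Between donor cells and embryos 8 of 10 differed (72.9% of all tested), 4 higher in donor cells (36.5%) and 4 lower (36.4%), so the members' share is close to that of the whole array. Between the trials 6 of 10 differed (32.3%), 5 higher in trial 2 (18.9%) and 1 lower (13.4%).

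PARK7 had its highest signal in donor cells, 4153. In the injected embryos of trial 2 it was 1203 with anti-DJ1 and 1272 with IgG, and in trial 1 it was 446 with anti-DJ1, 522 with IgG and 506 without injection. The donor value thus lay above every embryo value, both values of trial 2 lay above the 3 of trial 1, and within each trial the embryo arrays lay close together. Donor cells stood 8.40-fold above embryos at the level of trial 1 (log2 change 3.07 ± 0.17, SE, limma, adjusted p = 5.24e-09). Trial 2 stood 2.55-fold above trial 1 (1.35 ± 0.14, adjusted p = 6.85e-05). For every gene the fit set donor cells against embryos at the level of trial 1. Over all 5 embryo arrays the plain mean log2 signal of PARK7 was 9.47, against 12.02 in donor cells. No difference between embryo groups passed the test. Anti-DJ1 minus IgG was -0.15 ± 0.14 with a 95% confidence interval of -0.47 to 0.16 (adjusted p = 0.944), made of -0.22 in trial 1 and -0.08 in trial 2. Against the non-injected array, IgG embryos stood at 0.0097 ± 0.19 (interval -0.41 to 0.42) and anti-DJ1 embryos at -0.14 ± 0.19 (-0.56 to 0.27).

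The genes most like PARK7 over the log2 values of the 6 arrays, by Pearson's r among 5217 other genes, were DAD1 (r = 0.999), a subunit of the enzyme that attaches sugar chains to proteins, the peroxide-removing enzyme GPX1 (0.998), the proteasome subunit PSMA6 (0.997), the nucleolar protein NOP56 (0.997) and the ubiquitin ligase SIAH2 (0.996). GPX1, for example, had signals of 327 and 354 in the anti-DJ1 and IgG embryos of trial 1, 372 without injection, 927 and 930 in trial 2 and 2673 in donor cells, the same order of donor cells, trial 2 and trial 1. With so few points that share the arrays and 1 far donor value, such values are common: 710 genes had r over 0.9. Over the 5 embryo arrays alone the closest were HNRNPL (0.9996), CTBP2 (0.999), PPIL2 (0.999), CDK5 (0.999) and ABCF2 (0.999), and 1254 genes had r over 0.9. Each gene was taken by whichever of its tested probe sets had the highest r. Among the partners, r with PARK7 over the 6 arrays ran from 0.949 for the second MAP1LC3B probe set to -0.933 for HIPK1. Over the 5 embryo arrays it ran from 0.940 for UCHL1, which had -0.507 over the 6 arrays, to -0.921 for HIPK1.

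Among the mitophagy genes, PINK1, the kinase at the start of the pathway, had signals of 315 with anti-DJ1, 345 with IgG and 237 without injection in trial 1, 448 and 563 with anti-DJ1 and IgG in trial 2, and 402 in donor cells. It was the one gene of the 9 whose donor value lay inside the range of the embryos. It was higher in trial 2 by 0.60 ± 0.19 (adjusted p = 0.0271), a call lost under quantile normalization (0.36, adjusted p = 0.179) and at a common 75th percentile (0.36, adjusted p = 0.168). Its anti-DJ1 minus IgG change was -0.23 ± 0.19, with -0.13 and -0.33 in the trials. Injected embryos stood above the non-injected array by 0.58 ± 0.24 with IgG (adjusted p = 0.247) and by 0.36 ± 0.24 with anti-DJ1 (0.485), differences that did not pass.

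SQSTM1, the receptor that links ubiquitin-marked cargo to LC3, had a signal of 7985 in donor cells. In embryos it was 3561 with anti-DJ1, 4106 with IgG and 5303 without injection in trial 1, and 3316 with anti-DJ1 and 3542 with IgG in trial 2. The non-injected array was the highest of the embryo arrays, and the anti-DJ1 array was the lower of the pair in each trial. Donor cells were higher by 0.90 ± 0.13 (adjusted p = 3.25e-05). Anti-DJ1 minus IgG was -0.15 ± 0.11 (interval -0.39 to 0.09). Anti-DJ1 embryos stood below the non-injected array by -0.55 ± 0.14 (adjusted p = 0.0723), the lowest adjusted p of any member among the comparisons between embryos, and IgG embryos by -0.40 ± 0.14 (0.180). The first of these passed with the pseudocount at the 25th percentile (adjusted p = 0.0441) and with only the brightest 40% of probe sets tested (0.0128). In those settings 4.09% and 9.15% of all tested probe sets passed, against 1.92% in the main run.

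MAP1LC3B, whose product LC3 coats the growing autophagosome, was measured by both of its probe sets. The first probe set read 882, 918 and 784 in anti-DJ1, IgG and non-injected embryos of trial 1, 993 and 1204 in anti-DJ1 and IgG embryos of trial 2, and 1469 in donor cells. The second read 198, 342, 245, 350, 422 and 1032 on the same arrays in the same order. Both put donor cells above every embryo array. The fitted gaps to embryos at the level of trial 1 were 0.77 ± 0.17 (adjusted p = 0.00110) and 2.00 ± 0.23 (adjusted p = 5.54e-06). The 2 probe sets thus gave the same direction and different sizes. Anti-DJ1 embryos read below IgG embryos in both trials on both probe sets, by -0.17 ± 0.14 and -0.52 ± 0.20. The second of these was the change furthest from 0 of any member in that comparison, with -0.77 in trial 1 and -0.27 in trial 2, and it did not pass (unadjusted p = 0.0223, adjusted p = 0.853, and 0.483 to 0.99998 over the alternatives).

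UCHL1, a ubiquitin hydrolase abundant in neurons and oocytes that is linked to Parkinson's disease, had signals of 7029 with anti-DJ1, 8106 with IgG and 9029 without injection in trial 1, 11153 and 13126 with anti-DJ1 and IgG in trial 2, and 3424 in donor cells. Every embryo array lay above the donor cells. In the fit donor cells were lower by 1.23 ± 0.12 on the log2 scale, a 2.34-fold difference (adjusted p = 9.43e-07). Trial 2 was higher by 0.68 ± 0.10 (adjusted p = 0.000415). Anti-DJ1 embryos were the lower of the pair in both trials, at -0.21 and -0.23, and the fitted change of -0.22 ± 0.10 did not pass (unadjusted p = 0.0486, adjusted p = 0.853).

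Among the nuclear partners, PIAS1, which attaches SUMO to transcription factors, had the widest gap between embryos and donor cells after PARK7 on the deposited scale. At a common 75th percentile its gap was wider than that of PARK7 (-2.996 against 2.44), with the median of all tested probe sets at -0.59. Relative to that median PARK7 stood at 3.03 and PIAS1 at -2.40. The PIAS1 signals were 4820 with anti-DJ1, 5015 with IgG and 3671 without injection in trial 1, 4350 and 4524 with anti-DJ1 and IgG in trial 2, and 863 in donor cells. Donor cells were 5.15-fold lower (log2 change -2.36 ± 0.13, adjusted p = 5.88e-09). The 4 injected arrays all read above the non-injected one, by 0.45 ± 0.15 for IgG (adjusted p = 0.144) and 0.39 ± 0.15 for anti-DJ1 (0.181), without passing. Anti-DJ1 minus IgG was -0.06 ± 0.11 with an interval of -0.30 to 0.19, and -0.06 in each trial.

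HIPK1, the kinase that phosphorylates DAXX, read 5770 with anti-DJ1, 5660 with IgG and 7064 without injection in trial 1, 4149 and 3690 with anti-DJ1 and IgG in trial 2, and 3022 in donor cells. On the deposited scale it was the only one of the 9 genes that passed as lower in trial 2 (-0.55 ± 0.11, adjusted p = 0.00272), and donor cells were lower than embryos (-1.02 ± 0.13, adjusted p = 1.10e-05). Of the 10 tested probe sets it alone read higher with anti-DJ1 in both trials (0.03 and 0.17), with a fitted change of 0.10 ± 0.11 that did not pass.

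DAXX, the nuclear death regulator and chaperone, read 184 with anti-DJ1, 117 with IgG and 212 without injection in trial 1, 308 and 357 with anti-DJ1 and IgG in trial 2, and 82.3 in donor cells. All 6 values lay above the Tag limit. Donor cells were lower by 0.97 ± 0.31 (adjusted p = 0.0124), and trial 2 was higher by 1.15 ± 0.26 (adjusted p = 0.00618). Anti-DJ1 embryos read above IgG embryos in trial 1 by 0.64 and below them in trial 2 by -0.21. The fitted change was 0.21 ± 0.26, with an interval of -0.37 to 0.79.

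AKT1, the survival kinase, read 650 with anti-DJ1, 658 with IgG and 1024 without injection in trial 1, 1706 and 1862 with anti-DJ1 and IgG in trial 2, and 595 in donor cells. Trial 2 was 2.71-fold higher than trial 1 (1.44 ± 0.14, adjusted p = 4.43e-05), the widest trial gap of the 9 genes. The donor value was the lowest of the 6, and the change of -0.35 ± 0.16 did not pass (adjusted p = 0.0740). Within trial 1 both injected arrays read below the non-injected array (-0.65 with anti-DJ1 and -0.63 with IgG), and the fitted changes of -0.68 ± 0.19 for anti-DJ1 (adjusted p = 0.0837) and -0.61 ± 0.19 for IgG (0.125) did not pass over all probe sets. With only the brightest 40% tested both passed (adjusted p = 0.0185 and 0.0428). In that setting 9.15% and 7.56% of all tested probe sets passed, against 1.92% and 1.26% in the main run. The second AKT1 probe set was dim, from 25.8 to 69.5 in embryos and 10.1 in donor cells. It was not above the Tag limit in donor cells or on the IgG array of trial 2. The mean of the 5 embryo arrays, taken in log2, stood 1.19-fold above the donor array's highest Tag signal of 34.3. The IgG array of trial 1 (25.8) lay under that level.

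**Figure D2:**
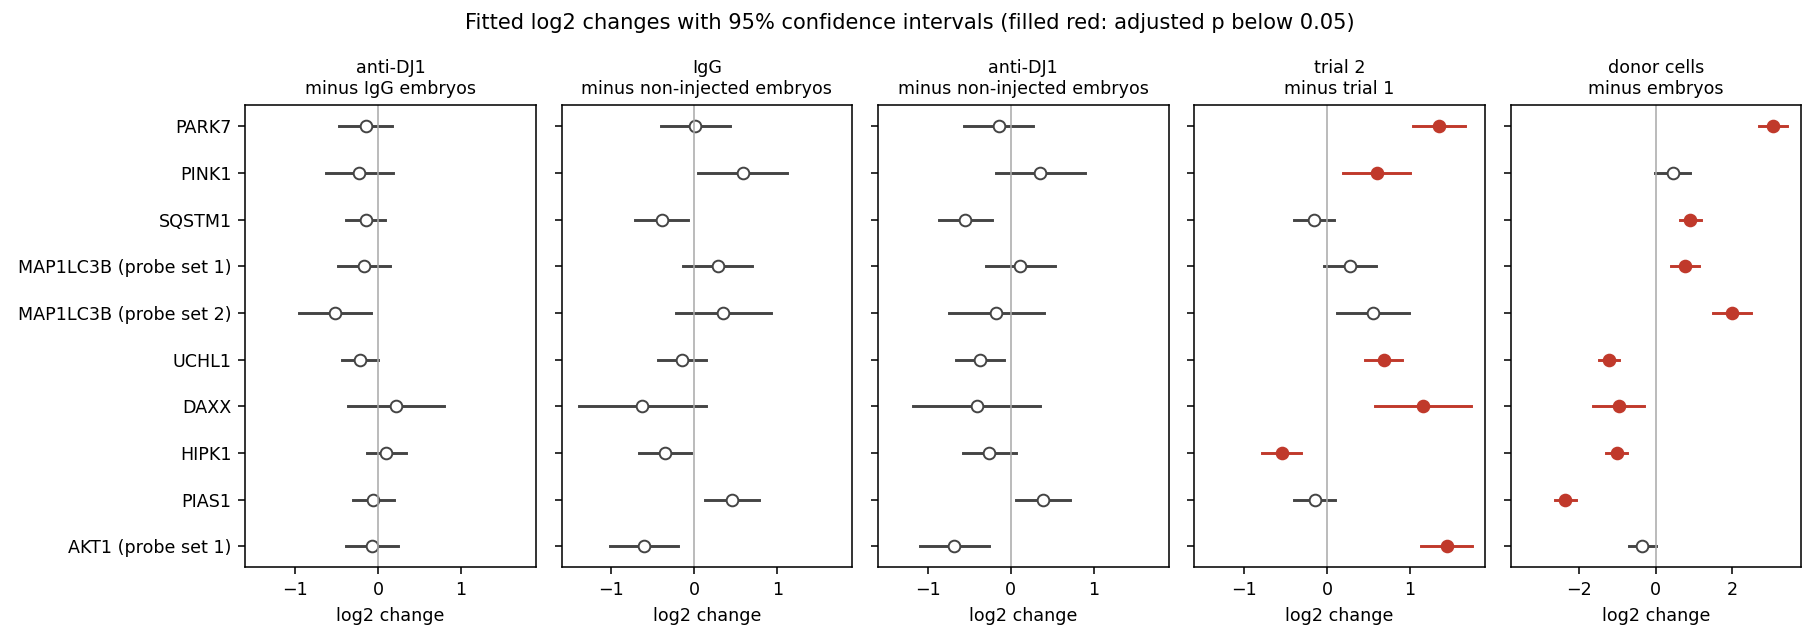
Fitted log2 change (x axis) of the 10 tested probe sets in 5 comparisons; points are estimates, lines are 95% confidence intervals, and filled red marks an adjusted p below 0.05. No probe set is filled in the 3 comparisons between embryos, 6 are filled between the trials and 8 between donor cells and embryos, where PARK7 is at 3.07 and PIAS1 at -2.36.

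When anti-DJ1 embryos were set against IgG embryos, which asks what the antibody does to transcripts, 0 of the 10 tested probe sets passed. The values of 8 were lower with anti-DJ1 in both trials, as were those of 26.8% of all tested probe sets, HIPK1 was higher in both (24.6% of all), and DAXX was opposite in the trials (48.7% of all). Their median change was -0.15, against -0.0054 for all tested probe sets. Single probe sets stayed within the bulk of the array: the within-trial ratios of PARK7 lay at the 25.2th percentile of all tested probe sets in trial 1 and the 40.6th in trial 2, and those of the second MAP1LC3B probe set at the 5.75th and 19.0th. No test was made of the members as a group. The EF1A ratio differed little between the compared arrays (24.2 against 23.9, and 8.20 against 9.34), and the summed fibroblast markers were 3360 with anti-DJ1 against 3075 with IgG in trial 1 and 2862 against 2914 in trial 2. Their part in these differences was not tested.

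The comparisons with the non-injected array ask what injection does. Both rest on that 1 array, and the IgG and anti-DJ1 comparisons share it, so their values are given side by side and not as support for each other. The unadjusted p was under 0.05 for 5 of 10 probe sets with IgG (AKT1, HIPK1 and SQSTM1 lower, PIAS1 and PINK1 higher) and for 4 of 10 with anti-DJ1 (AKT1, SQSTM1 and UCHL1 lower, PIAS1 higher), against 17.3% and 18.5% of all tested probe sets. After adjustment 0 passed in either. The hybridisation controls, added to every sample at a fixed amount, had medians of 2937 with IgG and 3147 with anti-DJ1 in trial 1 and of 6338 without injection, and the part of this in the differences was not tested.

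**Figure D3:**
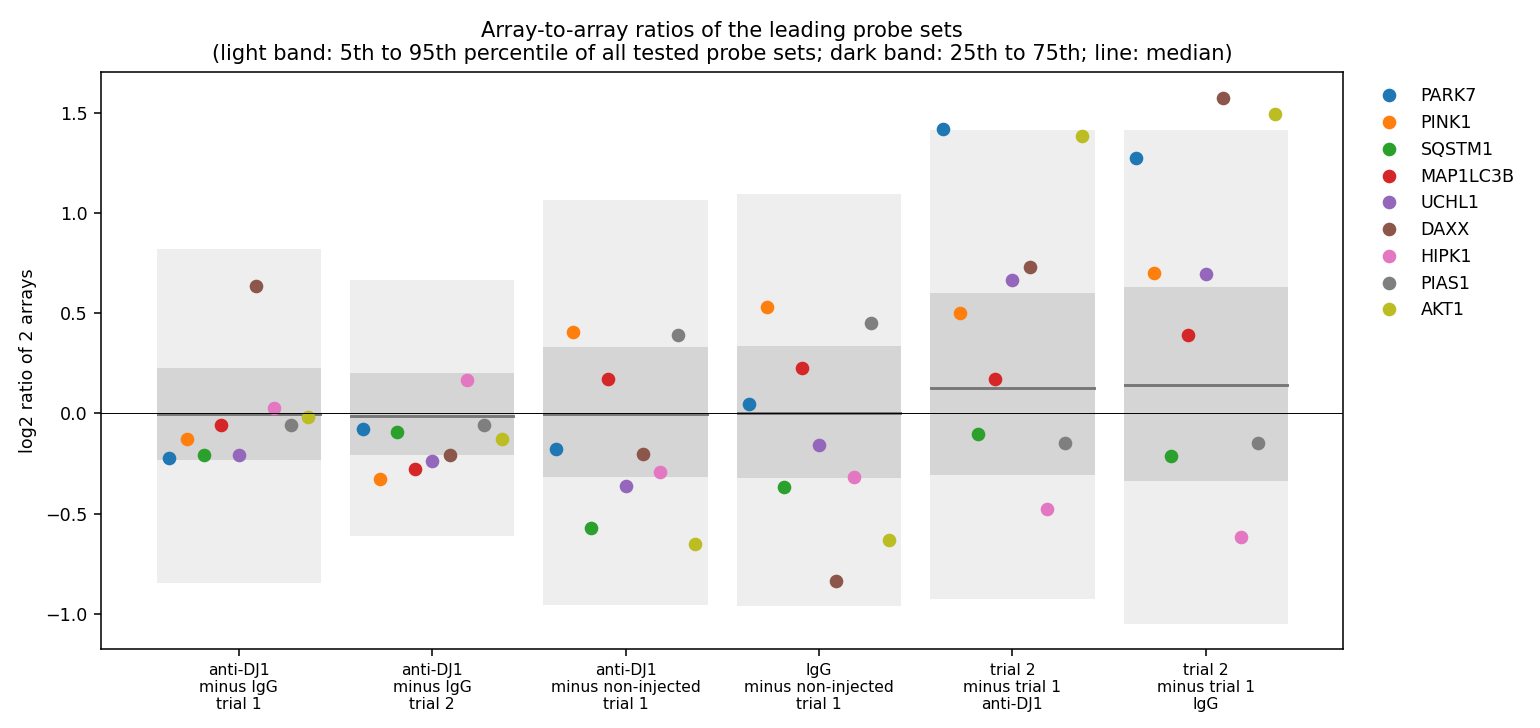
Log2 ratio of 2 arrays (y axis) for the leading probe set of each gene, in 6 pairs of arrays; bands give the 5th to 95th and the 25th to 75th percentile of the 14399 tested probe sets and the line their median. Between anti-DJ1 and IgG arrays all 9 genes lie inside the wide band in both trials, with DAXX at 0.64 and -0.21, while AKT1, DAXX and PARK7 reach 1.28 to 1.58 between the IgG arrays of the trials.

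Between the trials, PARK7, PINK1, UCHL1, DAXX and AKT1 were higher in trial 2, HIPK1 was lower, and SQSTM1, PIAS1 and MAP1LC3B did not pass. At a common 75th percentile SQSTM1 (-0.40, adjusted p = 0.0115) and PIAS1 (-0.39, adjusted p = 0.0153) also passed as lower. Relative to the median of all tested probe sets, SQSTM1 stood at -0.31 there and -0.30 as deposited, and PIAS1 at -0.30 and -0.29. The second MAP1LC3B probe set (0.55, adjusted p = 0.0506) passed as higher with the upper 40% tested (0.0221), with the pseudocount at the 25th percentile (0.0379) and without the non-injected array (0.0495). With the upper 40% tested, 50.0% of all tested probe sets passed between the trials. The shift was seen in both groups: PARK7 moved by 1.42 between the anti-DJ1 arrays and by 1.28 between the IgG arrays, AKT1 by 1.39 and 1.49, and DAXX by 0.73 and 1.58. Much of the array moved too, with a median of 0.14 over all tested probe sets, and the PARK7 ratios lay at the 95.1th and 93.2th percentiles. All 6 calls were lost without the mean-variance trend in the fit (0 of 14399 probe sets passed there; the lowest member adjusted p was 0.0823). Of all calls 58.7% were higher in trial 2, which became 47.3% under quantile normalization and 34.1% at a common 75th percentile, where the median of all probe sets stood at -0.0041 and -0.09. Relative to that median the PARK7 gap was 1.20 as reported, 1.15 and 1.20. The EF1A ratio of the injected arrays was 23.9 and 24.2 in trial 1 against 9.34 and 8.20 in trial 2, and their hybridisation controls were 2937 and 3147 against 1336 and 1236. Cell markers moved too. All 9 oocyte and embryo markers passed between the trials, 7 higher in trial 2, among them BMP15 (1.49), POU5F1 (1.47) and ZP2 (1.44), and 2 lower, WEE2 (-0.70) and KPNA7 (-0.97), and their summed signal in injected embryos was 81111 and 87934 in trial 1 against 79604 and 71599 in trial 2. Of 10 fibroblast markers TAGLN was higher (1.81) and SPARC lower (-0.65), and of 3 cumulus markers INHA was higher (1.36). These values move with the trial, and their part in the shift was not tested.

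The comparison of donor cells with embryos, taken in the fit at the level of trial 1, gave the widest differences. PARK7, SQSTM1 and both MAP1LC3B probe sets were higher in donor cells, and PIAS1, UCHL1, HIPK1 and DAXX were lower. The size depended on how the arrays were put on a common scale. The median over all tested probe sets was 0.02 as deposited, -0.41 under quantile normalization and -0.59 at a common 75th percentile, and the share of calls that were higher in donor cells went from 50.02% to 40.3% and 36.8%. PARK7 stood at 3.07, 3.15 and 2.44 under the 3 scalings and PIAS1 at -2.36, -2.51 and -2.996, with adjusted p below the threshold in each. SQSTM1 (0.27, adjusted p = 0.0731) and the first MAP1LC3B probe set (0.14, adjusted p = 0.470) no longer passed at a common 75th percentile, AKT1 passed as lower under both other scalings (-0.82 and -0.98), and PINK1 changed sign under both (-0.25 and -0.19, not passing). Relative to the median of all probe sets, the 3 scalings gave 3.05, 3.56 and 3.03 for PARK7, 0.88, 1.68 and 0.86 for SQSTM1, and 0.41, 0.16 and 0.41 for PINK1. Without the block for the trial, 5 of 10 passed (PARK7, PIAS1, SQSTM1, UCHL1 and the second MAP1LC3B probe set), as did 53.0% of all tested probe sets. The test rests on 1 donor array and assumes that it varies like the replicated embryo arrays. The EF1A ratio was 4.23 in donor cells, against 23.9 to 30.0 in trial 1 embryos and 8.20 and 9.34 in trial 2. The part of this ratio in the donor differences was not tested.

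Other genes of these pathways were taken from 6 lists, each gene by its brightest tested probe set. The 41 mitophagy and autophagy genes gave 29 with a tested probe set. Between anti-DJ1 and IgG embryos 0 of 29 passed (0% of all tested), 9 were positive and the median was -0.08. The smallest unadjusted p values belonged to ATG4B, the protease that prepares LC3 for lipid attachment (-1.75 ± 0.44, adjusted p = 0.799), the lipid kinase PIK3C3 (-0.44 ± 0.19), and the mitochondrial import receptors TOMM22 (-0.33 ± 0.15) and TOMM70 (-0.78 ± 0.44). ATG4B read 15.9 with anti-DJ1 in trial 1, which was not above the Tag limit, against 153 with IgG, and 128 against 191 in trial 2.

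Between donor cells and embryos, 26 of the 29 passed, 16 higher and 10 lower in donor cells, with a median of 0.75. Over all tested probe sets 72.9% passed, 36.5% higher and 36.4% lower, with a median of 0.02. ATG4A, a relative of ATG4B, was lower in donor cells (-3.98 ± 0.13, 631 against 9452 to 10379 in embryos), as was the import subunit TOMM7 (-2.62 ± 0.11). The lysosomal membrane protein LAMP2 (5.41 ± 0.26) and the LC3 relative GABARAP (2.71 ± 0.15) were higher. The list thus held changes in both directions, as the members did. Between the trials 9 of 29 passed as higher and 5 as lower in trial 2, against 18.9% and 13.4% of all tested probe sets. Against the non-injected array the autophagy gene ATG12 was higher with anti-DJ1 (0.88 ± 0.16, adjusted p = 0.0261). With IgG it stood at 0.68 ± 0.16 against the same array (adjusted p = 0.0652). Of the 29 genes, 1 passed with anti-DJ1 (1.92% of all tested probe sets) and 0 with IgG (1.26%).

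**Figure D4:**
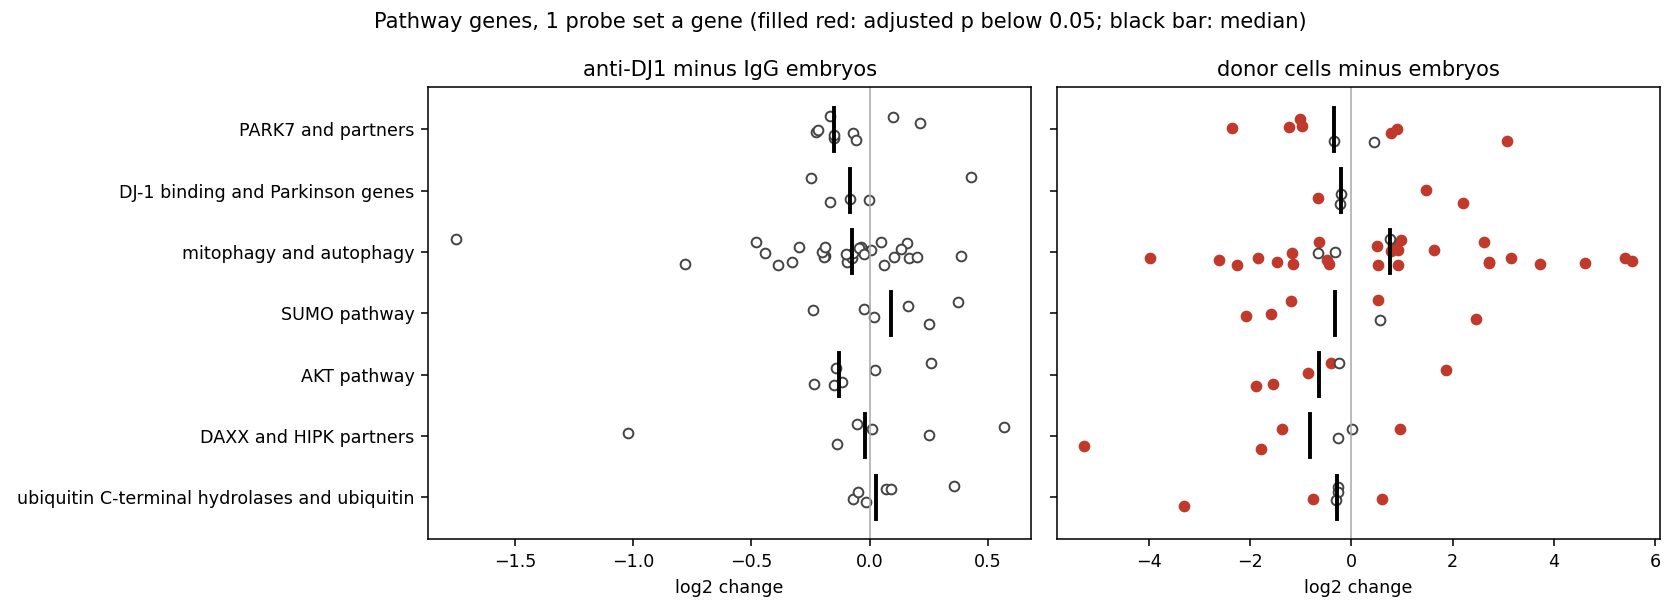
Log2 change (x axis) of each gene in 6 pathway lists and of the 9 member genes, for anti-DJ1 minus IgG embryos and donor cells minus embryos; 1 point is a gene's brightest tested probe set, filled red marks an adjusted p below 0.05 and the black bar is the median. No point is filled on the left, and on the right the filled points lie on both sides of 0 in every list.

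Of 20 DJ-1 binding and Parkinson genes 5 had a tested probe set, and 0 differed between anti-DJ1 and IgG embryos (median -0.08, 1 of 5 positive). The smallest unadjusted p values were those of the clathrin uncoating factor DNAJC6 (-0.25 ± 0.16), the chaperone-bound ubiquitin ligase STUB1 (0.43 ± 0.32), FBXO7 (-0.17 ± 0.17) and the mitochondrial chaperone HSPA9 (-0.08 ± 0.10). In donor cells 2 of 5 passed as higher (36.5% of all tested probe sets), STUB1 (2.20 ± 0.36) and the lysosomal transporter ATP13A2 (1.46 ± 0.40). DNAJC6 was lower (-0.66 ± 0.18). STUB1 read 42.7 on the non-injected array, not above the Tag limit there, so its change rests in part on a value at background. FBXO7 and ATP13A2 were higher in trial 2. ATP13A2 was not above the Tag limit on the anti-DJ1 array of trial 1. Its donor value of 144 lay inside the range of the embryos, between 141 with IgG and 171 with anti-DJ1 in trial 2.

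Of 16 SUMO pathway genes, to which PIAS1 belongs, 6 were tested and 0 differed between anti-DJ1 and IgG embryos (median 0.09, 4 of 6 positive), where the SUMO protease SENP6 stood at 0.37 ± 0.14 (unadjusted p = 0.0237, adjusted p = 0.853), the activating subunits UBA2 at 0.25 ± 0.16 and SAE1 at -0.24 ± 0.17, and SENP2 at 0.16 ± 0.13. In donor cells UBA2 (2.45 ± 0.19) and SENP2 (0.53 ± 0.15) were higher, and SUMO2 (-2.08 ± 0.12), SENP6 (-1.58 ± 0.17) and SAE1 (-1.19 ± 0.19) were lower. UBA2 and SAE1, which form 1 enzyme, thus lay on opposite sides.

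Of 19 AKT pathway genes 6 were tested and 0 differed between anti-DJ1 and IgG embryos (median -0.13, 2 of 6 positive), with AKT2 at -0.24 ± 0.12, PDPK1, the kinase that activates AKT, at -0.12 ± 0.11, and the AKT target FOXO1 at -0.14 ± 0.15. AKT2, the closest relative of AKT1 in the list, was lower in anti-DJ1 than in non-injected embryos (-0.84 ± 0.16, adjusted p = 0.0282), and IgG embryos stood at -0.61 ± 0.16 against the same array (0.0848). It was also lower in donor cells than in embryos (-1.89 ± 0.14). In donor cells 4 of the 6 were lower (36.4% of all tested probe sets) and TSC2 was higher (36.5% of all). TSC2 read 98.7 in donor cells and 32.7 to 68.5 in injected embryos, and its 10.5 on the non-injected array was not above the Tag limit there. FOXO1 and PPP2CA were higher in trial 2.

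Of 12 partners of DAXX and HIPK1 6 were tested and 0 differed between anti-DJ1 and IgG embryos (median -0.02, 3 of 6 positive). The stress kinase MAPK9 stood at -1.02 ± 0.39 (unadjusted p = 0.0243, adjusted p = 0.853) and read 32.3 with anti-DJ1 against 106 with IgG in trial 1, the first not above the Tag limit. The histone gene H3F3A, whose product DAXX deposits, stood at -0.14 ± 0.11 and PML at 0.57 ± 0.51. In donor cells H3F3A was higher (0.97 ± 0.13) and MAP2K4 was lower (-1.37 ± 0.13). MAPK8 and PML, not above the Tag limit there, also passed as lower (adjusted p = 4.81e-09 and 0.0169). The mean of their embryo arrays, taken in log2, stood 9.40-fold and 1.76-fold above the donor array's highest Tag signal of 34.3. PML read 25.3 on the IgG array of trial 1, under that level.

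Of 10 ubiquitin hydrolases and ubiquitin genes, the family of UCHL1, 6 were tested and 0 differed between anti-DJ1 and IgG embryos (median 0.03, 3 of 6 positive), with the deubiquitinase BAP1 at 0.36 ± 0.15 (unadjusted p = 0.0386, adjusted p = 0.853). UCHL3, the nearest relative of UCHL1 in the list, stood at 0.07 ± 0.14. In donor cells USP7 (-3.30 ± 0.14) and USP9X (-0.76 ± 0.14) were lower and RPS27A, which encodes ubiquitin fused to a ribosomal protein, was higher (0.59 ± 0.15). USP9X was higher in anti-DJ1 than in non-injected embryos (0.75 ± 0.16, adjusted p = 0.0385), and IgG embryos stood at 0.66 ± 0.16 against the same array (0.0652). In trial 2, UCHL3 and BAP1 were higher and RPS27A and USP7 lower.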

How the data were processed

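Values were probe set intensities that the authors deposited on a linear scale for 6 Affymetrix Porcine Genome arrays, 1 a sample, made from 50 ng of total RNA. The submitters' processing notes name MAS5 without a version, and detection calls were not used here. Symbols came from the platform annotation, updated by gene ID: 10069 of 23999 probe sets had 1 symbol, 198 several and 13732 none, and 124 control probe sets stayed out of the tests.

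A pseudocount of 4.57, the 10th percentile over all signals, was added before taking log2, which understates changes of dim probe sets. Probe sets in the upper 60% by mean were tested with limma 3.58.1 in R 4.3.3 (lmFit, then eBayes with its mean-variance trend on), two-sided, with group and trial as terms on all 6 arrays, Benjamini-Hochberg adjustment over 14399 probe sets and a threshold of 0.05. Donor cells were set against the mean of the 3 embryo groups at the level of trial 1, since trial is a term of its own. With 1 residual degree of freedom, to which moderation added 10.7, the number of arrays limits the precision. Non-injected embryos and donor cells are single arrays, assumed to vary like the others. The script was tested on simulated data. The labels tie replicate numbers to trials, and same-trial deviations correlated at r = 0.588 across probe sets. The p-values rest on how the anti-DJ1 to IgG difference varied between the trials, moderated with the spread of other probe sets. They do not measure the spread among non-injected embryos, among donor cells or among trials.

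The named genes were all probe sets of the 9 members, the 5 genes most like PARK7 and, from each list, up to 4 genes with the smallest unadjusted p between anti-DJ1 and IgG embryos or between donor cells and embryos; genes that passed in the other comparisons, and UCHL3, were named after their values were seen. Members and lists were chosen with earlier results of these data known. Alternatives were other scalings, pseudocounts and filters, no trend, no block, and leaving out arrays; leaving out the donor or the non-injected array was added after seeing the data. Sequences of probes or genes are not used here.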

Additional observations from a re-analysis of the deposited data

Results flagged for a closer look

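For DAXX the antibody and control arrays differed in opposite directions in the 2 trials, as they did for 48.7% of all tested probe sets. The log2 ratio of anti-DJ1 to IgG embryos was 0.64 in trial 1 and -0.21 in trial 2, from signals of 184 against 117 and 308 against 357. The difference between the trials was not tested, since it takes the only residual degree of freedom of the design.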

How the results depend on the processing

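With 1 residual degree of freedom and single non-injected and donor arrays, only wide differences could pass between embryo groups, and dim probe sets are limited by the Tag background. Between anti-DJ1 and IgG embryos 0 member probe sets passed under any alternative run. With the upper 40% of probe sets tested, 1 passed for IgG against non-injected embryos (7.56% of all tested). For anti-DJ1 against non-injected embryos 2 passed there (9.15% of all), and 1 with the pseudocount at the 25th percentile (4.09% of all). Without the mean-variance trend 0 passed between the trials. Without the replicate block, which the labels' trials support, 5 passed between donor cells and embryos, and 4 to 5 when 1 injected array was also left out (5 without IgG replicate 1, 4 without each of the other injected arrays). Leaving out an injected array needed the block dropped, so the values from those runs, given below, also hold the trial gap.

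Without the replicate block, the changes against non-injected embryos that turned sign were AKT1 (0.11) and UCHL1 (0.19) for IgG, and AKT1 (0.041), DAXX (0.16), the second MAP1LC3B probe set (0.10) and PARK7 (0.53) for anti-DJ1. PARK7 for IgG against non-injected embryos was -0.025 under quantile normalization and -0.012 at a common 75th percentile, and PINK1 in donor cells was -0.25 and -0.19. At the 75th percentile the whole array moved: relative to the median of all tested probe sets PARK7 was 0.016 on either scale and PINK1 0.41. The cause of the other sign changes was not tested.

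With 1 injected array left out, anti-DJ1 minus IgG ranged from -0.86 to 0.56 for PARK7 (0.49 without IgG replicate 2), -0.82 to 0.67 for AKT1 (0.62 without anti-DJ1 replicate 1), -0.57 to 1.002 for DAXX (-0.15 without anti-DJ1 replicate 2), -0.21 to 0.41 for HIPK1 (-0.14 without anti-DJ1 replicate 1), -0.36 to 0.028 for the first MAP1LC3B probe set, -0.13 to 0.017 for PIAS1, -0.58 to 0.12 for PINK1 (0.023 without anti-DJ1 replicate 1) and -0.57 to 0.13 for UCHL1. IgG minus non-injected ranged from -0.63 to 0.86 for AKT1, -0.84 to 0.74 for DAXX and -0.16 to 0.54 for UCHL1. Anti-DJ1 minus non-injected ranged from -0.65 to 0.73 for AKT1, -0.20 to 0.53 for DAXX, -0.30 to 0.50 for the second MAP1LC3B probe set, -0.18 to 1.24 for PARK7 and -0.36 to 0.30 for UCHL1. PARK7 in donor cells stayed positive, from 2.38 to 2.86.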
